A study of Homo sapiens with 12 samples.

Results

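Solute carriers (SLC) are membrane proteins that move sugars, amino acids, nucleotides, vitamins, metals and inorganic ions across the plasma membrane and the membranes of organelles. Most work without hydrolysing ATP, as uniporters, as symporters that use a sodium or proton gradient, or as exchangers that trade a solute on one side for a solute on the other. The SLC25 family sits mainly in the inner mitochondrial membrane and connects the metabolite pools of the matrix and the cytosol. In cancer cells, carriers for glucose, lactate, glutamine and large neutral amino acids are among those most often studied. The genes described here are the 196 rows of the deposited count table whose symbol begins with SLC, a family number and a letter, and which were selected on a measured value, a mean of at least 2 CPM in the control libraries (CPM is the usual depth-scaled count, here a gene count as a share of the library total). The table lists 221 such symbols among 13853 genes, and 25 of them fell under the floor. Of the 196 genes, 188 carry transporter symbols from 43 SLC families, assigned here to 16 substrate groups by family number. The other 8 are pseudogenes, an antisense transcript, regulators or neighbours that share an SLC symbol and are described separately.

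The RNA came from H1299, a human non-small cell lung cancer line. One group carried a control vector (shNT, 3 libraries) and the other a short hairpin vector against GAS41 (shGAS41, 3 libraries), the product of YEATS4, a protein with a YEATS domain that binds acetylated histones. Cells of both groups had been infected with virus and kept under drug selection before the experiments. The labels name a single knockdown group, and the sources used here do not say how many hairpins or separate infections stand behind its 3 libraries. The p-values set the difference between groups against the variation among libraries of a group, and that variation may therefore be technical. The series also holds 6 chromatin immunoprecipitation samples, which are not analysed here.

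Library totals ran from 58629147 to 72747010 counts, and the 10 most counted genes took between 5.23% and 6.02% of a library. YEATS4 checked the labels: its mean was 46.3 ± 1.89 CPM in control and 1.81 ± 0.179 CPM in knockdown libraries (SD, n = 3), a log2 fold change of -4.68. Of the markers of the line, KRT8, KRT18 and VIM were all listed with counts in every library, and PTPRC, PECAM1 and SFTPC, markers of other cells, are not analysed here. Depth was not limiting for most carriers: the lowest count of any of the 196 genes in any library was 62, and 193 of them had over 100 counts in every library.

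Solute carrier genes were called in both directions after knockdown. With edgeR's quasi-likelihood test and Benjamini-Hochberg adjustment over all 13846 genes tested, 129 of 196 passed an adjusted p of 0.05 (65.8%), 72 rose (36.7%), 57 fell (29.1%) and 67 were not called. In RNA from whole cultures, fewer cells expressing a gene and less of its RNA per cell cannot be told apart. Among all genes tested 68.1% were called, 33.6% rising and 34.5% falling. Among the 12345 tested genes that meet the same control floor the shares were 69.3%, 31.8% and 37.5%. The share of carriers called was therefore close to that of other genes. The median log2 fold change of the 196 was 0.03 (quartiles -0.26 and 0.38), against -0.01 for all genes tested and -0.04 with the floor. The median size of the change, regardless of sign, was 0.36 on the log2 scale for carriers, 0.35 for all genes and 0.33 with the floor. The 3 knockdown values lay wholly to one side of the 3 control values for 133 carriers (67.9%), compared with 72.3% of all genes tested and 73.4% of those with the floor.

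Changes of at least 2-fold comprised 7 rises (3.57% of the 196) and 8 falls (4.08%), beside 6.4% and 3.71% of all genes tested and 3.99% and 3.77% of those with the floor. The number of rises depended on the floor: it was 14 with a floor of 1 CPM or of 2 CPM over all 6 libraries, and 4 with a floor of 5 CPM, while the falls stayed at 8 under all 3. The floor uses the control level, which is also one arm of the comparison, so genes that were low in control and higher after knockdown are left out by it. Of the 25 SLC symbols under the floor, 18 rose, 0 fell and 7 were not called. Genes under the floor leaned the same way in general. Of all 4655 rising genes 3928 met the floor, and of all 4770 falling genes 4627 did. The members just inside the floor were SLC22A20 (2.06 CPM in control, unscaled, not called), SLC35F3 (2.11, rose) and SLC25A24P1 (2.17, fell). Just outside lay SLC22A17 at 1.98 CPM with a log2 fold change of 1.67, SLC6A16 at 1.92 (not called) and SLC26A1 at 1.90 with 1.29.

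**Figure D1:**
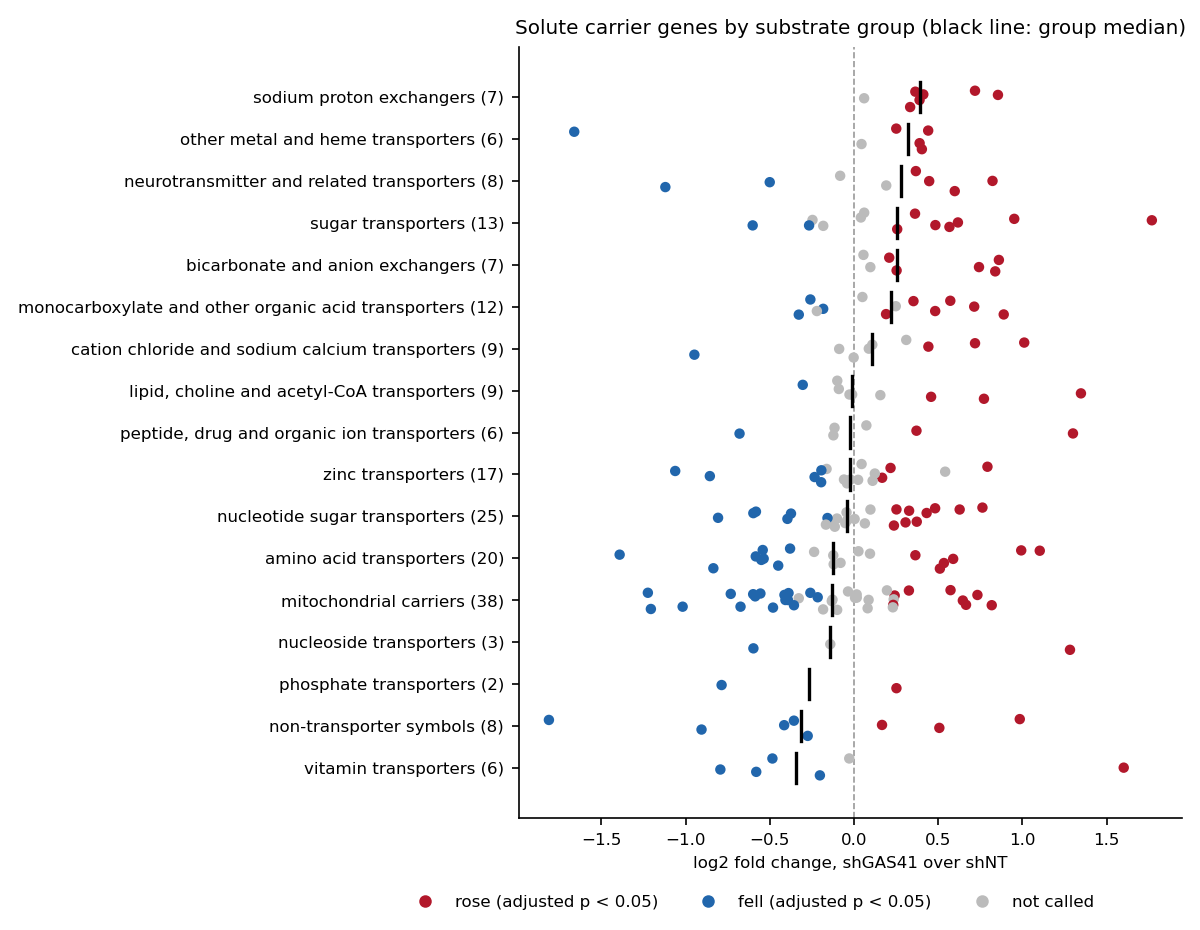
Log2 fold change (horizontal axis, knockdown over control) of each of the 196 solute carrier genes, 1 point per gene, in rows by substrate group with the number of genes in parentheses; red points rose, blue points fell, grey points were not called, and the black line is the group median. Sodium proton exchangers have the highest median at 0.39 with 6 of 7 red points, vitamin transporters the lowest at -0.34, and the 38 mitochondrial carriers reach from -1.22 to 0.82.

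Glucose entry into cells is carried by the SLC2 (GLUT) family, and here the neuronal-type, high-affinity glucose transporter SLC2A3 (GLUT3; ENSG00000059804) had the largest rise of all 196 genes. It stood at 53, 51.3 and 52.7 CPM in the control libraries and at 192, 172 and 171 CPM in the knockdown libraries (CPM from here on are scaled by edgeR's TMM factors). All knockdown values were above 3 times any control value, and the log2 fold change was 1.77 ± 0.05 (SE; adjusted p = 8.2e-09, edgeR). SLC2A14 of the same family, which lies under the floor, rose by 1.82 on the log2 scale, from a mean of 0.606 to 2.14 CPM. How reads were split between SLC2A3 and SLC2A14 could not be checked. SLC2A1 (GLUT1), the widely expressed glucose transporter, was not called: its values were 73.6, 90.0 and 92.8 CPM in control and 79.2, 93.0 and 95.1 CPM in knockdown, with a log2 fold change of 0.06 ± 0.10. The first replicate was the lowest SLC2A1 value of both groups, and the groups overlapped. Without that control library the SLC2A1 difference was -0.03, still not called.

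Of the 13 genes grouped as sugar carriers (SLC2, SLC5, SLC37, SLC45 and SLC50), 7 rose, 2 fell and 4 were not called, with a median of 0.26. Beside this and each substrate group that follows stand the shares of all genes with the floor, 31.8% rising and 37.5% falling. The other rises included SLC5A12, a sodium-coupled carrier of lactate and other monocarboxylates despite its sugar-carrier family number, at 2.84, 2.68 and 2.62 CPM in control and 5.38, 5.31 and 5.06 CPM after knockdown (log2 fold change 0.95 ± 0.11). SLC50A1, the human member of the SWEET sugar transporters, rose by 0.57 on the log2 scale, from 37, 37.4 and 31.6 CPM to 53.6, 51.3 and 52.1 CPM. Further rises were SLC2A6 (0.62), the proton-coupled myo-inositol transporter SLC2A13 (0.48), SLC37A3 (0.36) and SLC2A8 (0.26). The call of SLC2A8 was lost without shGAS41 replicate 2 (adjusted p = 0.0669, edgeR) or shGAS41 replicate 3 (0.0533). Both falls concerned carriers with other roles than glucose uptake. SLC37A4, which brings glucose 6-phosphate into the endoplasmic reticulum, fell from 21.9, 21.7 and 21.1 CPM to 15.3, 12.8 and 14.5 CPM (log2 fold change -0.60 ± 0.08). SLC5A6, the sodium-dependent carrier of biotin and pantothenate, fell by 0.27 on the log2 scale, with all 3 knockdown libraries (107 to 119 CPM) under the control libraries (131 to 141 CPM).

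Monocarboxylate transporters of the SLC16 family move lactate and pyruvate together with protons. SLC16A3 (MCT4), the lactate exporter of glycolytic cells, was at 126, 125 and 123 CPM in control libraries and 225, 233 and 236 CPM after knockdown. The groups were far apart relative to their spread, with a log2 fold change of 0.89 ± 0.04 (adjusted p = 6.73e-08, edgeR). SLC16A1 (MCT1), which works in both directions, showed overlapping groups, 122, 136 and 149 CPM against 142, 159 and 163 CPM. Its log2 fold change of 0.19 ± 0.08 passed the threshold (adjusted p = 0.0459) but did not without shNT replicate 1 (0.13, adjusted p = 0.121), shNT replicate 2 (0.0913), shGAS41 replicate 2 (0.126) or shGAS41 replicate 3 (0.145), nor with scaling by library size alone (0.0583).

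Altogether 6 of the 12 genes of the monocarboxylate and organic acid group rose, 3 fell and 3 were not called (median 0.22). SLC16A5 rose by 0.71, from 6.23, 5.95 and 5.97 CPM to 10.8, 9.68 and 9.34 CPM. SLC10A7 (0.48) and the sodium-dicarboxylate cotransporter SLC13A3 (0.35) also rose. The 3 falls were small: the aromatic amino acid carrier SLC16A10 (-0.26), SLC16A9 (-0.33) and SLC10A3 (-0.18). None of them held in every fit, and the number falling was 1 without shNT replicate 1 and 0 without shNT replicate 2. SLC10A3 lost its call without shNT replicate 2 (adjusted p = 0.0851, edgeR). SLC16A9 lost it without shNT replicate 1 (0.0526) or 2 (0.082), and its difference was -0.20 without shGAS41 replicate 1. For SLC16A10 the call was lost without any one control library (adjusted p from 0.057 without shNT replicate 2 to 0.11 without shNT replicate 3) and without shGAS41 replicate 1 (0.101) or 3 (0.0806).

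Amino acid carriers moved in both directions: 6 of 20 rose, 8 fell and 6 were not called, with a median of -0.12. SLC7A5 (LAT1; ENSG00000103257) exchanges large neutral amino acids such as leucine and works as a heterodimer with the glycoprotein encoded by SLC3A2. SLC7A5 was at 682, 742 and 722 CPM in control and 388, 511 and 533 CPM after knockdown (log2 fold change -0.58 ± 0.11, adjusted p = 0.00174, edgeR). Its partner SLC3A2 was at 261, 288 and 275 CPM in control libraries and 157, 197 and 212 CPM after knockdown (-0.54 ± 0.10, adjusted p = 0.000966). Both genes of the heterodimer fell by similar amounts, and the first knockdown library was the lowest for each. SLC7A11 (xCT), the cystine-glutamate exchanger that also pairs with SLC3A2, fell from 43.9, 37.2 and 40.9 CPM to 25.6, 32.7 and 31 CPM (-0.45 ± 0.09). The glutamine carrier SLC1A5 (ASCT2) fell from 165, 181 and 178 CPM to 118, 139 and 146 CPM (-0.38 ± 0.07). In all 4 genes the first knockdown library was the lowest of its group, and no knockdown value reached the control range.

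The sodium-coupled neutral amino acid transporters SLC38A1 and SLC38A2 went opposite ways. SLC38A1 was at 511, 486 and 519 CPM in control and 353, 353 and 340.1 CPM after knockdown, with a log2 fold change of -0.54 ± 0.04 (adjusted p = 1.71e-06, edgeR). SLC38A2 (SNAT2), whose expression is known to rise under amino acid starvation, was at 627, 555 and 570.0 CPM in control libraries and 861, 827 and 806 CPM after knockdown, with a log2 fold change of 0.51 ± 0.05 (adjusted p = 1.03e-05). For both, the spread within a group was small beside the difference between groups. The cationic amino acid transporter SLC7A2 fell by 0.55 on the log2 scale, while its relative SLC7A1 was not called (-0.12 ± 0.10).

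The deepest fall among amino acid carriers was that of SLC36A1 (PAT1; ENSG00000123643), a proton-coupled carrier of small amino acids found on lysosomes and at the cell surface. Its values were 35.9, 35.2 and 36.8 CPM in control and 13.2, 13.2 and 14.7 CPM in knockdown, a log2 fold change of -1.39 ± 0.07 (adjusted p = 8.49e-08, edgeR). SLC36A4 of the same family fell by 0.84. Among other amino acid carriers of the lysosome, SLC38A7 rose by 0.36 and SLC38A9, the lysosomal arginine sensor, was not called (0.03 ± 0.06). Among the rises, SLC43A1 (LAT3), a facilitative carrier of branched-chain amino acids, was at 2.77, 2.05 and 2.43 CPM in control and 5.66, 4.44 and 5.54 CPM after knockdown (1.10 ± 0.15). The glutamate and cysteine carrier SLC1A1 (EAAT3) was at 2.57, 2.19 and 2.57 CPM in control libraries and 4.66, 4.99 and 4.95 CPM after knockdown (0.99 ± 0.12). Both lie just above the floor of the selection. SLC43A2 (0.59) and SLC38A6 (0.53) completed the rises, and SLC1A3, SLC1A4, SLC7A6 and SLC38A10 were not called.

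**Figure D2:**
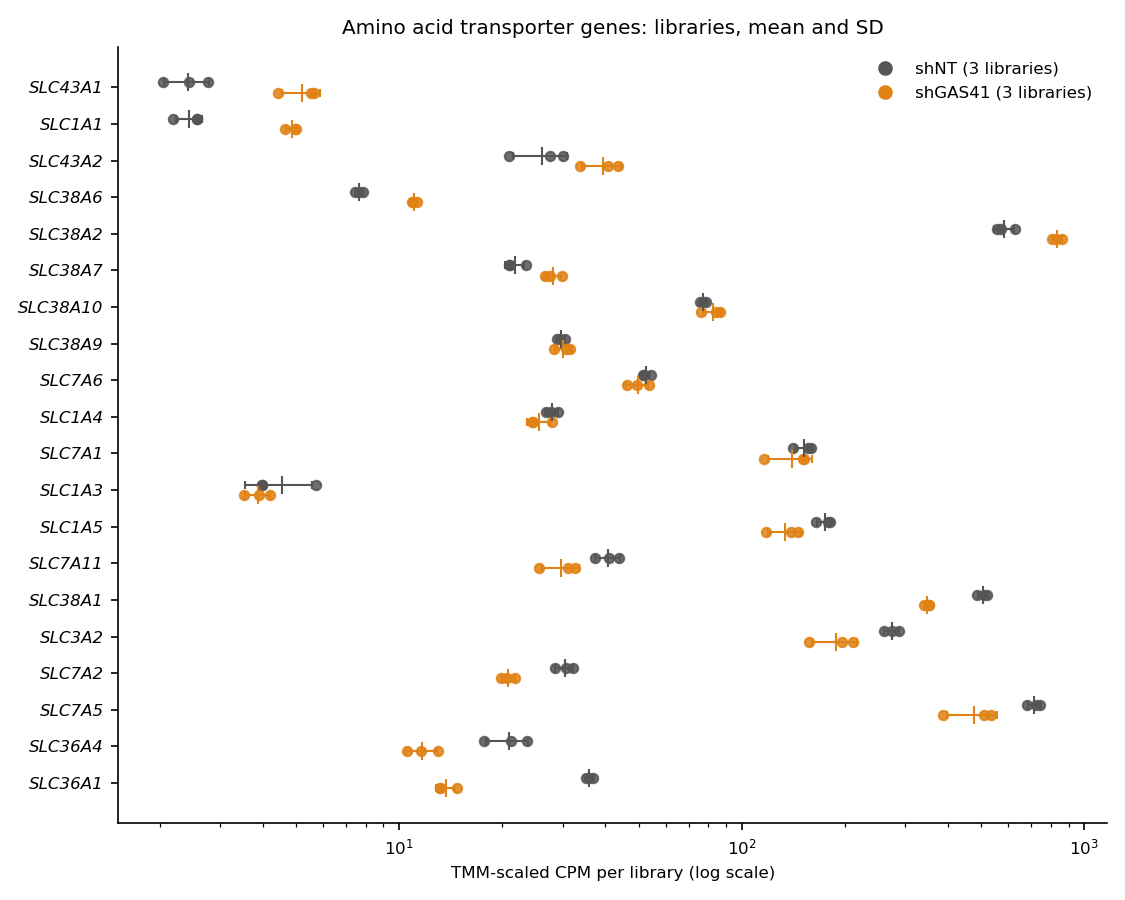
Expression of the 20 amino acid carrier genes in TMM-scaled CPM on a log axis, 1 point per library, with the mean (tick) and SD (bar) of the 3 control (grey) and 3 knockdown (orange) libraries, ordered from the highest to the lowest log2 fold change. Orange points lie right of grey points without overlap for the 6 genes at the top, and left of them for the 8 genes at the bottom.

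Of the 38 SLC25 mitochondrial carriers 8 rose and 16 fell, beside 31.8% and 37.5% of all genes with the floor. The other 14 were not called, and the median of the 38 was -0.13. The falls included some of at least 2-fold. SLC25A10, the dicarboxylate carrier that exchanges malate or succinate for phosphate, was at 11.2, 11.2 and 10.2 CPM in control and 4.41, 4.99 and 4.56 CPM after knockdown (log2 fold change -1.22 ± 0.09, adjusted p = 1.37e-06, edgeR). SLC25A14, also known as a brain-type uncoupling protein, was at 10.0, 10.0 and 12.8 CPM against 4.70, 4.82 and 4.71 CPM (-1.21 ± 0.11). The groups were separate for both genes. SLC25A46, an outer membrane protein that takes part in mitochondrial dynamics, fell from 57, 54.0 and 57.2 CPM to 36.9, 37.2 and 36.9 CPM (-0.60 ± 0.05).

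Carriers around the tricarboxylic acid cycle and of cofactors were among the other falls. The NAD+ carrier SLC25A51 fell by 0.73, the oxoglutarate-malate carrier SLC25A11 by 0.67 and the citrate carrier SLC25A1 by 0.59 on the log2 scale. SLC25A17, a peroxisomal cofactor carrier, fell by 0.48, SLC25A32 (folate and flavin) and SLC25A44 (branched-chain amino acids) by 0.41 each, and the glycine carrier SLC25A38 by 0.39. The ornithine carrier SLC25A15 (-0.36), the pyrimidine nucleotide carrier SLC25A33 (-0.26) and the glutamate carrier SLC25A22 (-0.22) fell less. SLC25A22 lost its call without shNT replicate 2 (adjusted p = 0.0864, edgeR). Iron import offered an opposite pair: SLC25A37 (mitoferrin-1) rose from 46.1, 50.6 and 50.9 CPM to 82.4, 89.8 and 87.9 CPM (0.82 ± 0.06), and SLC25A28 (mitoferrin-2) fell by 0.56.

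ADP/ATP carriers exchange matrix ATP for cytosolic ADP and are encoded by several SLC25 genes. SLC25A6 was at 504, 534 and 516 CPM in control libraries and 804, 813 and 814 CPM after knockdown, with a log2 fold change of 0.65 ± 0.04 (adjusted p = 2.9e-07, edgeR). SLC25A5 was at 411, 422 and 418 CPM in control and 326, 309 and 321 CPM after knockdown, with a log2 fold change of -0.39 ± 0.04 (adjusted p = 1.13e-05). SLC25A4, the heart and muscle type, was not called (0.08 ± 0.05). These genes are close copies with many pseudogenes, so how reads were split between them could not be checked. The other rises were SLC25A45 (0.73), the basic amino acid carrier SLC25A29 (0.66), the acylcarnitine carrier SLC25A20 (0.57), SLC25A35 (0.33), the aspartate-glutamate carrier SLC25A13 (0.24) and the calcium-regulated ATP-Mg carrier SLC25A23 (0.23). SLC25A35 lost its call without shNT replicate 3 (adjusted p = 0.0518), and SLC25A23 without shGAS41 replicate 1 (0.0637), shNT replicate 2 (0.0792) or shNT replicate 3 (0.0932). The phosphate carrier SLC25A3 was at 623, 644 and 639 CPM in control libraries and 625, 643 and 646 CPM after knockdown and was not called, with a log2 fold change of 0.01 ± 0.04.

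**Figure D3:**
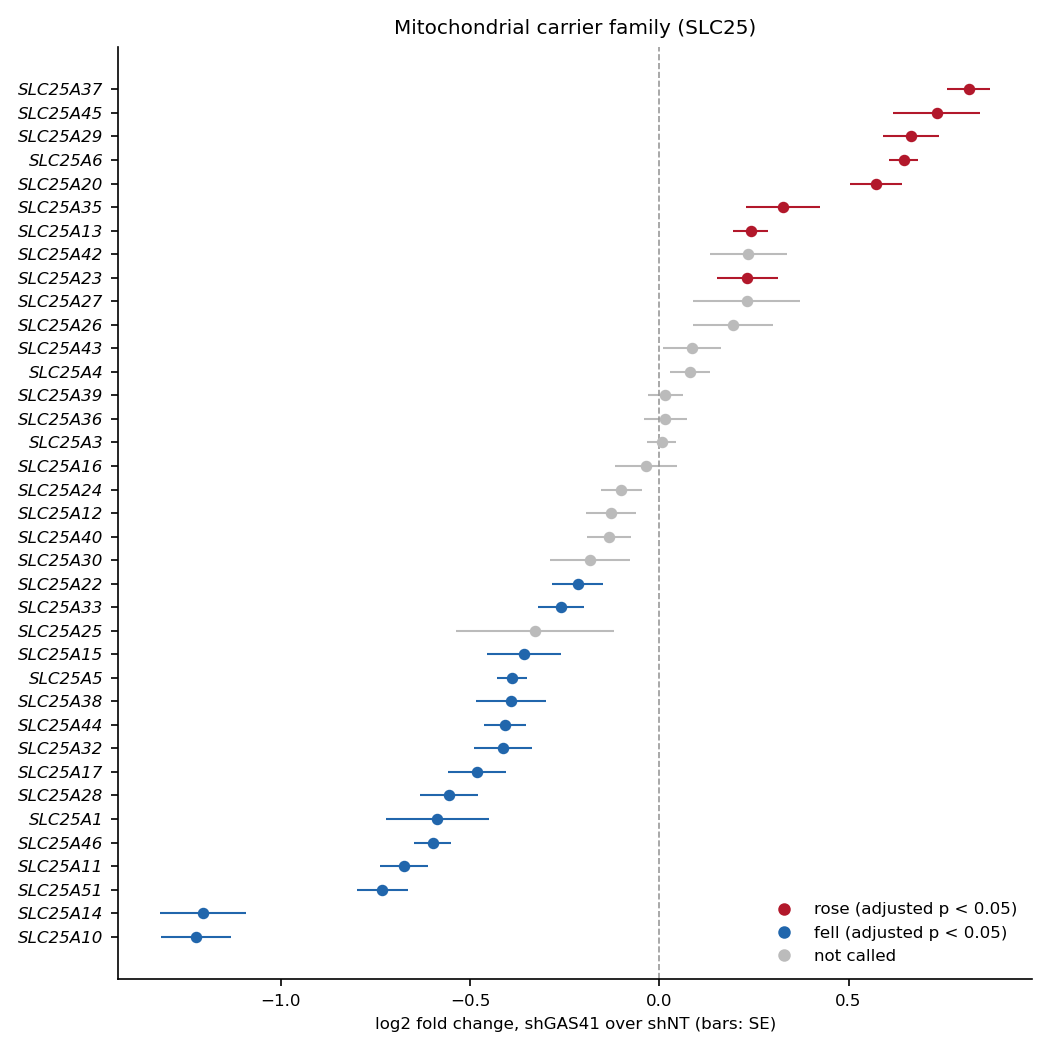
Log2 fold change (horizontal axis, knockdown over control) of mitochondrial carrier genes with bars of 1 SE, ordered by size; red rose, blue fell, grey were not called. The blue points reach down to -1.22 (SLC25A10) and the 8 red points up to 0.82 (SLC25A37), with SLC25A6 and SLC25A5 on opposite sides of 0.

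Metal carriers held the largest fall of a transporter gene. SLC41A3, of a family of magnesium carriers, was at 76.7, 78.8 and 76.8 CPM in control and 23.1, 24.5 and 25.9 CPM after knockdown, with a log2 fold change of -1.66 ± 0.06 (adjusted p = 1.14e-08, edgeR). Its relatives differed: SLC41A2 rose by 0.44 and SLC41A1 was not called (0.04 ± 0.05). The proton-coupled iron importer SLC11A2 (DMT1) rose by 0.40, the heme carrier SLC48A1 by 0.39 and the copper importer SLC31A1 by 0.25 on the log2 scale.

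Zinc leaves the cytosol through SLC30 proteins and enters it through SLC39 proteins. Of these 17 genes, 3 rose, 5 fell and 9 were not called (median -0.02). Importers made up the 3 largest falls. SLC39A3 (ZIP3) was at 36.1, 37.2 and 34.9 CPM in control libraries and 16.2, 17.5 and 18.1 CPM after knockdown (-1.06 ± 0.07, adjusted p = 3.55e-07, edgeR). SLC39A8 (ZIP8), which also carries manganese, was at 59.4, 67.3 and 73.3 CPM against 34.6, 38.1 and 37.8 CPM (-0.86 ± 0.08). SLC39A7 (ZIP7) of the endoplasmic reticulum fell by 0.23, and SLC30A9 and SLC30A6 by 0.20 and 0.19. In the other direction SLC39A11 rose from 8.28, 8.34 and 9.20 CPM to 13.7, 15.4 and 15.6 CPM (0.79 ± 0.08) and SLC39A9 by 0.22. The vesicular exporter SLC30A7 rose by 0.17 with overlapping groups, and lost the call without shNT replicate 1 (adjusted p = 0.119), shNT replicate 2 (0.0725), shGAS41 replicate 2 (0.111) or shGAS41 replicate 3 (0.15) and with scaling by library size alone (0.0594). The plasma membrane exporter SLC30A1 was at 17.7, 30.4 and 30.6 CPM in control and 28.1, 42.7 and 43.5 CPM after knockdown. Its first replicate was the lowest in both groups, the groups overlapped, and it was not called in a fit that takes no account of replicate numbers (0.54 ± 0.27, adjusted p = 0.117).

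Carriers of protons, bicarbonate and chloride set the pH and volume of cells and organelles. Among the 7 sodium proton exchangers 6 rose and 0 fell, beside 31.8% and 37.5% of all genes with the floor. The remaining 1 was not called, and the median of the 7 was 0.39. SLC9A7, of the trans-Golgi network, was at 49.9, 45 and 46.4 CPM in control libraries and 90.7, 83.5 and 81.5 CPM after knockdown (0.85 ± 0.06, adjusted p = 7.98e-07, edgeR). The Golgi exchanger SLC9A8 rose by 0.36, with separate groups, and SLC9B2 was the gene not called (0.06 ± 0.08). SLC9A5 (0.41, groups overlapping) lost its call without shGAS41 replicate 1 (adjusted p = 0.165), shNT replicate 2 (0.152) or shNT replicate 3 (0.14) and with scaling by library size alone (0.0624). SLC9A2 (0.33) lost it without shGAS41 replicate 1 (0.0532) or 3 (0.0771), or shNT replicate 1 (0.0531) or 2 (0.0698).

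Of the 7 bicarbonate and anion exchangers 5 rose and 0 fell (median 0.25). SLC4A11 was at 6.08, 5.40 and 5.47 CPM in control and 11.6, 10.4 and 8.78 CPM after knockdown (0.86 ± 0.11). The chloride exchanger SLC26A6, for anions such as oxalate and bicarbonate, was at 17.6, 16 and 15.7 CPM against 28.5, 28.7 and 31 CPM (0.84 ± 0.07). SLC26A11 rose by 0.74, the sulfate carrier SLC26A2 by 0.25 and SLC4A8 by 0.21. SLC4A8 lost its call without shGAS41 replicate 2 (adjusted p = 0.0514, edgeR) or 3 (0.0673). The broadly expressed SLC4A2 (0.06 ± 0.04) and SLC4A7 (0.10 ± 0.05) were not called.

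Chloride uptake and release are opposed within SLC12. SLC12A2 (NKCC1), which brings sodium, potassium and chloride in, was at 39.7, 39.7 and 47.1 CPM in control libraries and 22.8, 21.2 and 21.5 CPM after knockdown (-0.95 ± 0.08, adjusted p = 2.17e-06, edgeR). SLC12A7 (KCC4), which carries potassium and chloride out, was at 14, 13.4 and 12.4 CPM against 23.8, 27.4 and 29 CPM (1.01 ± 0.09, adjusted p = 3.5e-06). The importer fell and this exporter rose, each with separate groups. The potassium chloride exporters SLC12A4 (0.09 ± 0.05) and SLC12A5 (0.31 ± 0.15) were not called, and SLC12A9 rose by 0.72. SLC8B1, the mitochondrial sodium calcium exchanger, rose by 0.44. The sodium phosphate importers divided: SLC20A1 fell from 183, 168 and 170.3 CPM to 96.9, 100.4 and 105 CPM (-0.79 ± 0.05), and SLC20A2 rose by 0.25.

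Vitamin carriers had the lowest median of the transporter groups at -0.34, with 4 of 6 falling, 1 rising and 1 not called. This ranking rests on grouping by family number, which counted the biotin and pantothenate carrier SLC5A6 (-0.27) with the sugar carriers. The next lowest median was that of the phosphate group, at -0.27. The reduced folate carrier SLC19A1 was at 36.2, 42.1 and 41 CPM in control and 22.3, 28.7 and 28.7 CPM after knockdown (-0.58 ± 0.10, adjusted p = 0.000557, edgeR). The proton-coupled folate carrier SLC46A1 fell from 2.79, 2.69 and 2.21 CPM to 1.32, 1.55 and 1.58 CPM (-0.79 ± 0.16). The riboflavin carrier SLC52A2 fell from 95.7, 113 and 106 CPM to 65, 77.1 and 82.9 CPM (-0.48 ± 0.09). Both folate carriers thus fell. The ascorbate carrier SLC23A2 fell by 0.20 and lost the call without shGAS41 replicate 1 (adjusted p = 0.0537), shNT replicate 2 (0.0714) or shNT replicate 3 (0.0956). The exception in the group was SLC46A3, a lysosomal protein, at 6.53, 5.21 and 4.29 CPM in control libraries and 16.2, 16.2 and 16.5 CPM after knockdown, with a log2 fold change of 1.6 ± 0.13 (adjusted p = 2.15e-06).

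Nucleosides enter cells chiefly through SLC29 proteins. SLC29A1 (ENT1) was at 184, 193 and 186 CPM in control and 121, 126 and 125 CPM after knockdown (-0.60 ± 0.04, adjusted p = 9.46e-07, edgeR). SLC29A4 (PMAT), which mainly carries monoamines and other organic cations, was at 4.70, 4.61 and 4.25 CPM against 11.3, 11.4 and 10.3 CPM (1.28 ± 0.09). Within 1 family SLC29A1 fell and SLC29A4 rose, and SLC29A2 was not called (-0.14 ± 0.16). Of the 25 genes of SLC35, most of which carry nucleotide sugars into the Golgi and endoplasmic reticulum or have no assigned substrate, 9 rose, 6 fell and 10 were not called (median -0.04). SLC35D2 rose from 68.3, 59.9 and 65.2 CPM to 115, 103 and 111 CPM (0.76 ± 0.06). SLC35B2, which supplies the sulfate donor PAPS to the Golgi, rose by 0.63 and SLC35C2 by 0.43. Among the falls, SLC35G2 went from 39.4, 41.1 and 42 CPM to 21.8, 24 and 24.2 CPM (-0.81 ± 0.06), SLC35B1, which brings ATP into the endoplasmic reticulum, fell by 0.60, and SLC35E3 fell by 0.58. The UDP-galactose carrier SLC35A2 was not called (-0.04 ± 0.06).

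Lipid, choline and acetyl-CoA carriers numbered 9, of which 3 rose, 1 fell and 5 were not called (median -0.01). SLC27A1 (FATP1), a fatty acid transport protein with acyl-CoA synthetase activity, was at 9.95, 8.42 and 8.20 CPM in control libraries and 25.1, 20.6 and 22.1 CPM after knockdown (1.35 ± 0.10, adjusted p = 1.32e-06, edgeR). The choline carrier SLC44A1 was at 45.9, 45.3 and 49 CPM against 82.1, 80.7 and 76.4 CPM (0.77 ± 0.05, adjusted p = 6.84e-07). These groups did not overlap. SLC44A2 (0.46) lost its call without shGAS41 replicate 1 (adjusted p = 0.0719), shNT replicate 2 (0.0503) or shNT replicate 3 (0.0515). SLC27A3 was the sole fall (-0.30), lost without shNT replicate 1 (0.084), shGAS41 replicate 2 (0.095) or shGAS41 replicate 3 (0.0515). The number falling was thus 0 in those 3 fits and 2 without shGAS41 replicate 1, where the acetyl-CoA carrier SLC33A1 (-0.17) was called as well.

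Of the 8 genes of SLC6, SLC17 and SLC18, 4 rose and 2 fell (median 0.28). The creatine carrier SLC6A8 was at 16.5, 16.2 and 15.7 CPM in control and 26.5, 30.5 and 28.8 CPM after knockdown (0.82 ± 0.07, adjusted p = 3.42e-06, edgeR). SLC6A17 rose by 0.60 and the taurine carrier SLC6A6 by 0.37. The vesicular monoamine carrier SLC18A2 rose by 0.45, a call lost without shGAS41 replicate 2 (adjusted p = 0.0724), shNT replicate 1 (0.07) or shNT replicate 2 (0.0616). SLC18B1, a vesicular carrier of polyamines, was at 28.1, 27 and 28 CPM in control libraries and 13.5, 12.3 and 12.4 CPM after knockdown (-1.12 ± 0.07). The neutral amino acid carrier SLC6A15 fell by 0.50. In the group of peptide, drug and organic ion carriers, SLC22A18 was at 5.32, 4.05 and 3.78 CPM against 11.2, 10.9 and 10.4 CPM (1.30 ± 0.13) and the carnitine carrier SLC22A5 rose by 0.37. The multidrug and toxin extruder SLC47A1 (MATE1) fell by 0.68, and the other 3 of these 6 genes were not called.

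**Figure D4:**
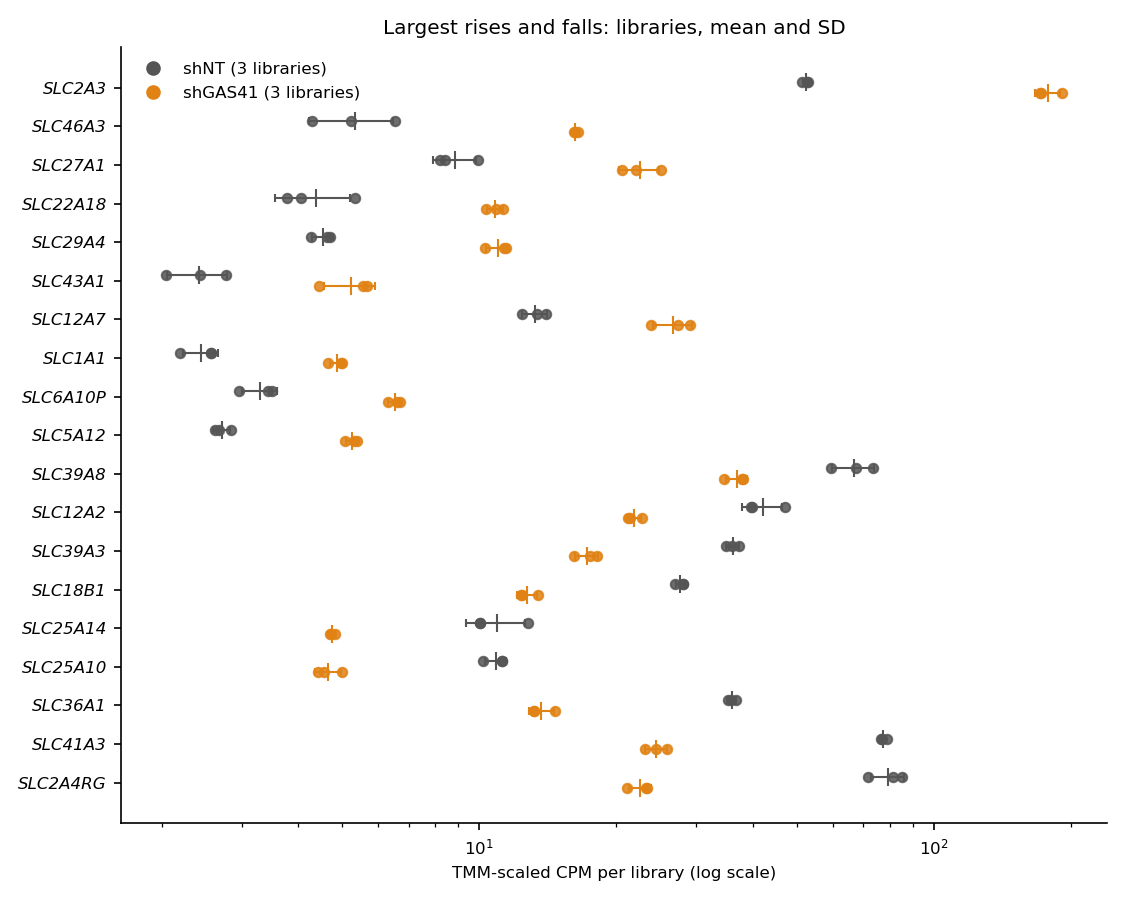
Expression of the 10 largest rises (top) and of most of the 10 largest falls (bottom) among the called solute carrier genes with a mean of 2 CPM or more over all 6 libraries, in TMM-scaled CPM on a log axis, 1 point per library with the mean (tick) and SD (bar) of the 3 control (grey) and 3 knockdown (orange) libraries. In all genes shown the orange and grey points do not overlap; SLC2A3 moves from about 52.3 to 178 CPM and SLC2A4RG from 79.4 to 22.6 CPM.

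Of the 8 SLC symbols that do not denote a carrier, 3 rose and 5 fell. SLC2A4RG, a zinc finger protein named for binding near the gene of the glucose transporter GLUT4, had the largest fall of all 196 genes, from 85, 81.3 and 71.8 CPM to 23.3, 23.3 and 21.2 CPM (-1.81 ± 0.07, adjusted p = 2.76e-08, edgeR). The scaffold proteins of SLC9A3 both rose, SLC9A3R2 by 0.51 and SLC9A3R1 by 0.17. The SLC9A3R1 call was lost without shGAS41 replicate 3 (adjusted p = 0.0874) or shNT replicate 3 (0.0626). SLC6A10P, a near copy of the creatine carrier gene, rose from 3.43, 2.97 and 3.49 CPM to 6.29, 6.70 and 6.58 CPM (0.98 ± 0.11). Reads of SLC6A10P and SLC6A8 could not be told apart from the counts alone, so both values are uncertain. SLC25A24P1 (-0.91), SLC16A1-AS1 (-0.41), SLC7A6OS (-0.36) and SLC4A1AP (-0.28) fell. The sources used here do not say whether counting used strand, so reads of the antisense SLC16A1-AS1 may include some of its partner.

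Genes that act with carriers were measured in the same fit. The lists of such genes were chosen with earlier results of these data known, so their counts are a description only. The first list holds chaperones, partner proteins and regulators of carriers. Of its 18 genes tested (21 in the list), 15 rose, 0 fell and 3 were not called, with a median of 0.39. Among all genes tested 33.6% rose and 34.5% fell. The arrestin-like adaptor ARRDC3 rose by 2.1 and ARL6IP5, which binds the glutamate carrier SLC1A1, by 1.21 on the log2 scale. BSG, the chaperone of SLC16A1 and SLC16A3, averaged 676 ± 27.6 CPM in control libraries and 931 ± 12.5 CPM in knockdown libraries (SD, n = 3), a log2 fold change of 0.46. STK39, a kinase that activates SLC12A2, rose by 0.60. BSG and STK39 were chosen after their values were seen. Of 24 ATP-binding cassette transporters tested (25 in the list), 12 rose and 6 fell (median 0.33), beside the same 33.6% and 34.5% of all genes. The cholesterol exporter ABCA1 rose by 1.71 and the organic anion exporter ABCC3 by 3.68, while the peroxisomal ABCD3 and the mitochondrial ABCB10 each fell by under 0.5 (-0.48 and -0.49).

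Of 25 carriers named outside the SLC symbols (32 in the list), 13 rose and 7 fell (median 0.19). The shares of all genes tested, 33.6% rising and 34.5% falling, stand beside this list and each of those that follow. PQLC2 (0.54), the lysosomal cationic amino acid exporter, and MFSD12 (0.42) rose, and the heme exporter FLVCR1 (-0.70) and MFSD1 (-0.47) fell. Other mitochondrial membrane transport proteins gave 4 rises and 7 falls of 17 (19 in the list), with a median of -0.12. LETM1 of the inner membrane fell by 1.10, from 183 ± 4.39 to 85.4 ± 5.46 CPM, and the channel VDAC2 by 0.31, while the sideroflexins SFXN3 and SFXN5 rose by 0.92 and 0.89. Of 5 sodium potassium pump subunits and regulators tested (10 in the list) 2 rose, FXYD5 among them (0.68), and ATP1B1 (-0.62) fell. Among 17 transcription factors known to act on carrier genes 7 rose and 2 fell (median 0.22). The zinc-responsive factor MTF1 (0.73) and the coactivator PPARGC1A (0.92) rose, and MLX (-0.34) and ESRRA (-0.23) fell.

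The letters before the transcription start of carrier genes were searched for 7 short motifs, as a description. RefSeq windows (GRCh38.p14) were found for 155 of the 196 genes, 230 windows in all, and the 250 bases before each start were read on both strands. The E-box CACGTG stood before 13 of 46 genes that fell (28.3%), 10 of 54 that rose (18.5%) and 4 of 55 not called (7.27%), against 7.73% of all 27305 genes with a window. The element TTTNGCGC, of E2F type, stood before 5 of 46 falling genes (10.9%), 1.85% of rising, 1.82% of uncalled and 1.84% of all genes. The NRF1 element was searched with 1 free base at its centre. It stood before 8 of 46 falling genes (17.4%), 3.7% of rising, 7.27% of uncalled and 6.2% of all genes. The letters of the latter motifs can share bases. Carrier windows had a median GC content of 66% and a median of 21 CG pairs, against 58% and 11 for all windows. The GC box GGGCGG stood before 85.2% of rising, 82.6% of falling and 81.8% of uncalled carrier genes but 46.2% of all genes. CCAAT stood before 44.4% of rising, 45.7% of falling, 52.7% of uncalled and 37% of all genes. TGACNNNGC, the core of the antioxidant response element, stood before 7.41% of rising, 21.7% of falling, 30.9% of uncalled and 13.2% of all genes.

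Stretches around the E-box are printed to show that genes called in either direction carry it; they run 5′ to 3′ on the gene's strand, with the motif in capitals.
SLC36A1 (fell), chr5:151447535-151447590, plus strand: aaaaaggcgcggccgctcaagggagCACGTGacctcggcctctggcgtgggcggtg
SLC7A5 (fell), chr16:87869607-87869662, minus strand: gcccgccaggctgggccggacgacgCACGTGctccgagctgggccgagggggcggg
SLC1A5 (fell), chr19:46787313-46787368, minus strand: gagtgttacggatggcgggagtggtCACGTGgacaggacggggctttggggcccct
SLC43A1 (rose), chr11:57515784-57515839, minus strand: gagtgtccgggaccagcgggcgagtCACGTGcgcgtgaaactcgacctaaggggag
SLC12A7 (rose), chr5:1112086-1112141, minus strand: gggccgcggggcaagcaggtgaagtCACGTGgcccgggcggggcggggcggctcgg
The motif began 43 bases before the start in SLC36A1, 130 in SLC7A5, 50 in SLC1A5, 112 in SLC43A1 and 53 in SLC12A7, and SLC36A1 held a further CACGTG 8 bases before its start. The amino acid response element TGATGNAA stood before 3.89% of all genes, 3.64% of uncalled carriers, 0 of the rising carriers and 4.35% of the falling ones. One of the latter was SLC1A5, before another of its annotated starts, printed for the motif's position 97 bases upstream.
SLC1A5, chr19:46784879-46784936, minus strand: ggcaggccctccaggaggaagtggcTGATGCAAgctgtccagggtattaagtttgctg

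The authors' deposited table also holds their own log2 fold change and adjusted p for each gene. At an adjusted p of 0.05 the authors' deposited table calls 41 of the 196 carriers higher (20.9%) and 31 lower (15.8%), beside 18.6% and 14.6% of all genes tested here and 16.4% and 15.9% of those with the floor. Of these, 40 rose and 27 fell in the fit to the counts, and 0 carriers were called in opposite directions. A further 32 rises and 30 falls of the fit were not called in the authors' deposited table, and 5 carriers were called there alone (SLC25A27 higher, and SLC1A3, SLC7A1, SLC25A40 and SLC39A10 lower; these 5 were listed after their values were seen). For 4 of the largest falls the deposited fold change differed from that of the counts by over 1 on the log2 scale. The authors' deposited table gives 0.14 for SLC2A4RG, -0.19 for SLC41A3, -0.26 for SLC36A1 and -0.02 for SLC25A10, where the counts gave -1.81, -1.66, -1.39 and -1.22. In each of the 4 genes all knockdown CPM values lay under all control values. Such differences were seen for 204 of all 13846 genes, and their cause was not tested. For SLC2A3 the authors' deposited table gives 1.15, for SLC16A3 0.71 and for SLC7A5 -0.40, each called in the same direction as in the counts.

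**Figure D5:**
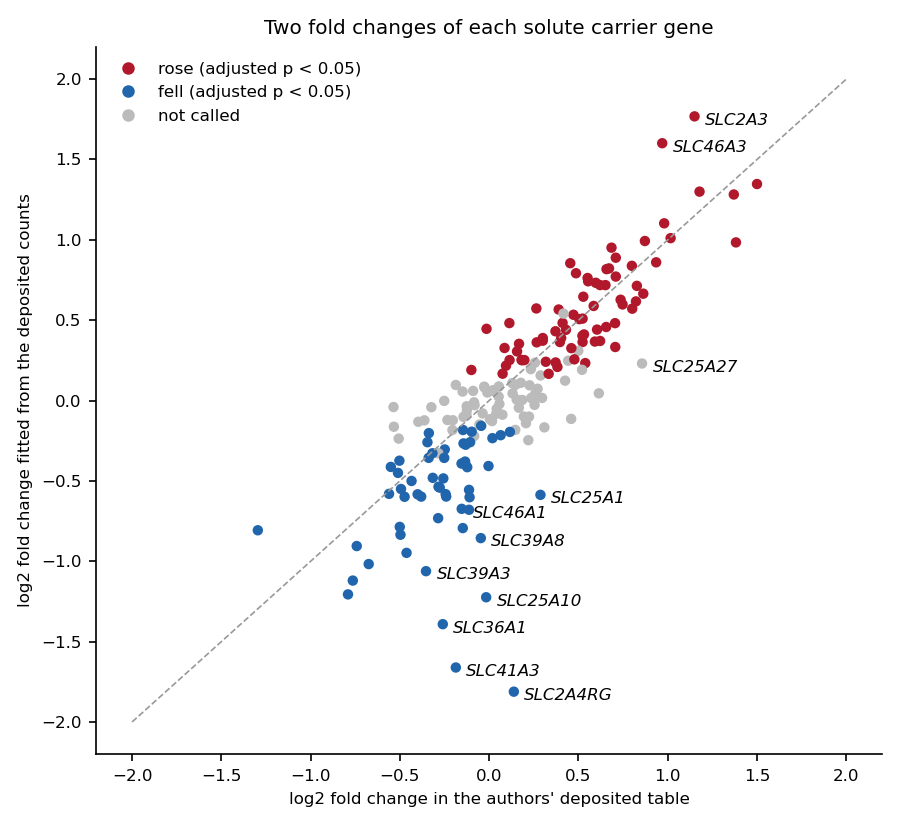
Log2 fold change of each of the 196 solute carrier genes in the authors' deposited table (horizontal axis) against that fitted to the deposited counts (vertical axis), coloured by the call in the fit, with the dashed line marking equal values. Most points lie along the line, while SLC2A4RG, SLC41A3, SLC36A1 and SLC25A10 lie over 1 below it.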

How the data were processed

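Messenger RNA of H1299 cells was sequenced in 3 control and 3 knockdown libraries, grouped by sample title. Of the deposited columns, those of the libraries are unnormalized whole-number counts for each gene. The remaining deposited columns are the authors' log2 fold change, p-value and adjusted p-value for knockdown over control, used only where the report compares them with the counts. Per the submitters' processing notes the build was hg19; the tools listed there include TopHat2 2.0.10 and HTSeq, with no roles given. Counting options, annotation release and use of strand are unknown here, so overlapping genes and near copies may share reads.

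All 13853 genes were fitted together in edgeR 4.0.16 (limma 3.58.1, R 4.3.3) with TMM scaling, filterByExpr (7 genes left out), robust quasi-likelihood dispersion and Benjamini-Hochberg adjustment over 13846 genes. Each SE was computed as the absolute log2 fold change over the square root of the F statistic. The code was tested on simulated data. The biological coefficient of variation was 7.58% and the median SE 0.0756, so spread between libraries sets the precision.

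Genes with full values were taken from the 3 rising and 3 falling of smallest p in each substrate group, the 10 largest rises and 10 largest falls, and carriers chosen for their textbook role. Some results are not reported here. Of each list of other genes up to 2 rising and 2 falling of smallest p are named. The members, groups and lists were chosen with earlier results of these data known. Alternatives were DESeq2 1.42.0, other scalings and filters, a replicate block, leaving out each library and other floors.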

Additional observations from a re-analysis of the deposited data

How the results depend on the processing

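Across 12 other fits (2 other scalings, 2 other filters, a replicate block, DESeq2 and each library left out), 108 of the 129 called carriers kept their call in every one, 21 lost it in at least 1, and 0 gained the opposite call, while 17 of the 67 uncalled carriers gained one. At an absolute log2 fold change of at least 1 there were 7 rises and 8 falls. The number of rises of at least 2-fold was 14 with a floor of 1 CPM, 4 with a floor of 5 CPM and 14 with a floor of 2 CPM over all 6 libraries. The median log2 fold change of the members was 0.0123 with library size alone, 0.0688 with a floor of 1 CPM, 0.000648 with a floor of 5 CPM and 0.0600 with 2 CPM over all 6 libraries, and it ran from 0.0163 (without shGAS41 replicate 3) to 0.0547 (without shNT replicate 1) with a library left out. Leaving out a library gave 63 to 71 rises and 51 to 58 falls, and DESeq2 gave 73 and 57. With the replicate number as a block there were 77 rises and 65 falls, and 13 carriers changed call, among them SLC30A1, which rose under the block (log2 fold change 0.55, adjusted p = 4.69e-10, edgeR). Deviations from the group means correlated at 0.446 between the first replicates, the highest of all pairs, but at 0.0783 and 0.094 between the second and between the third, and shNT replicate 2 correlated best with shGAS41 replicate 3 (0.27). The first replicates thus deviated together, but not every same-numbered pair passed 0.1 and the labels state no shared culture or day, so the numbers were not used as pairs in the values of the report.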
